A study of Mus musculus with 12 samples.

Results

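The 8 genes described here encode sodium channel subunits that CA1 pyramidal neurons of the hippocampus may use to fire action potentials and to hold their resting potential: the pore-forming Scn1a, Scn2a1, Scn3a and Scn8a, the accessory Scn2b, Scn3b and Scn4b, and the sodium leak channel Nalcn. They were taken by gene symbol from a table of 24079 genes, as a family picked with earlier results of these data known but by no rule on measured values, and all 8 were among the 17823 genes with at least 15 reads in total that were tested. The libraries were made from RNA that came down with HA-tagged ribosomes, 6 of wild-type mice and 6 of Fmr1-/y (Fmr1 KO) mice, each a pool of 4 to 6 male mice aged 2 to 6 months on a C57BL/6J background. All mice of both genotypes carried the Wfs1-CreERT2 driver and the RiboTag allele and had received tamoxifen on 3 days, 1 week before the tissue was taken, so that the tag on the ribosomal protein Rpl22 depended on Cre activity from the Wfs1 promoter. Fmr1-/y mice lack FMRP, an RNA-binding protein that regulates translation, and the wild-type mice were their littermates. The question addressed was whether ribosome-bound mRNA of these subunits differed between the genotypes.

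Voltage-gated sodium channels open on depolarization and carry the rising phase of the action potential. One large alpha subunit forms the pore and the voltage sensors, and small beta subunits with a single membrane-spanning segment change its gating, its delivery to the membrane and its contact with cell adhesion proteins. In pyramidal neurons the channels are concentrated at the axon initial segment through ankyrin. Nalcn is a relative of the alpha subunits that passes a steady sodium leak and works in a complex with Unc79, Unc80 and Fam155a.

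The 3 alpha subunits Scn3a, Scn2a1 and Scn1a lie on chromosome 2 (GRCm38, the same build as mm10), Scn3a next to Scn2a1 and Scn1a beyond other genes. Scn3a spans chr2:65457118-65567591 on the minus strand, Scn2a1 (Scn2a in the reference) chr2:65620764-65767447 on the plus strand, and Scn1a chr2:66270781-66440837 on the minus strand. Scn8a lies apart from them, at chr15:100869863-101045938 on the plus strand. The accessory genes are on the plus strand of chromosome 9, with Scn2b (chr9:45117876-45130070) separated by 8554 bases from Scn4b (chr9:45138624-45154155), and Scn3b at chr9:40269216-40291618. Nalcn lies at chr14:123275678-123627330 on the minus strand.

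The alpha subunits are close enough in sequence that reads of 50 bases cannot always tell them apart, which bears on their counts. The stretch of coding sequence around the fast inactivation gate of Scn8a, the most abundant alpha subunit here, is shown because the gate is a part that the alpha subunits share and Nalcn lacks as a motif. The gate is the loop that plugs the pore within milliseconds of opening, and its core is a run of 3 codons for isoleucine, phenylalanine and methionine. The stretch is 75 bases long, at coding bases 4396 to 4470 of a GENCODE transcript with a RefSeq accession, read 5′ to 3′, and the capitals mark the 3 gate codons.
Scn8a: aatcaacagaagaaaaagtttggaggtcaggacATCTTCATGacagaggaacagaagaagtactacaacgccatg

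Over the whole coding sequence, identity was 81.5% between Scn2a1 and Scn1a, 80.8% between Scn2a1 and Scn3a and 78.5% between Scn1a and Scn3a, and Scn8a shared 70.1 to 71.9% with these genes. Nalcn had 45.2 to 45.8% identity with the alpha subunits, and codons for isoleucine, phenylalanine, methionine and threonine in a row, the motif searched in the reading frame of each coding sequence, were found 0 times in it and 1 time in each alpha subunit. Windows of 50 bases in the transcript were searched in the other sodium channel subunits. Of all windows, 5.48% in Scn1a, 7.8% in Scn2a1 and 9.54% in Scn3a occurred in another subunit without a mismatch. The share was 0 in the Scn8a transcript used, the accessory subunits and Nalcn. Scn8a was still among the subunits in which windows of Scn3a occurred, so its 0 covers only the transcript used. With up to 3 mismatches, the number the authors allowed in an alignment, the shares were 17.6%, 20.1%, 19.5% and 2.63% for Scn1a, Scn2a1, Scn3a and Scn8a. Every window matches its own transcript exactly, so these larger shares include windows for which the own gene is the closer match. How reads with several matches were counted is not given in the sources used here, and the counts of Scn1a, Scn2a1 and Scn3a are uncertain to that extent.

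The accessory subunits are not related closely enough for this, with 47.1 to 50.1% coding identity among Scn2b, Scn3b and Scn4b. Scn4b differs from the others in carrying a short basic segment on its cytoplasmic side, which can block the open channel in place of the gate and is known for its part in resurgent sodium current. It is shown because this subunit was the most variable of the 8 between Fmr1-/y libraries. The 42 bases that encode the segment, at coding bases 550 to 591, are given without capitals.
Scn4b: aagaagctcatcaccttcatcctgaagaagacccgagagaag

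Between 39400980 and 55745464 reads were counted on genes in the wild-type libraries and between 43106629 and 65565479 in the Fmr1-/y libraries. Reads of Fmr1 numbered 1971 to 2608 per wild-type library and 0 or 1 per Fmr1-/y library. None of the marker genes that define another cell type was at 0. The CA1 pyramidal markers summed to 8689 to 10780 CPM (reads scaled to a common library size by the TMM method) in wild-type and 8354 to 9970 CPM in Fmr1-/y libraries, and all 8 had a log2 fold change below 0, with 3 at an unadjusted p under 0.05 and 0 at an adjusted p under 0.05 (over all genes tested, 48.6% were below 0 and 7.96% had an unadjusted p under 0.05). The oligodendrocyte markers summed to 1032 to 1524 and 935.7 to 1405 CPM, and the 10 interneuron markers to 122.3 to 253.6 and 135.2 to 186.9 CPM. The 5 astrocyte markers summed to 697.8 to 845.8 and 762.5 to 1188 CPM and all had a log2 fold change above 0 (2 at an unadjusted p under 0.05), as did the 4 endothelial markers (also 2 at an unadjusted p under 0.05), which summed to 24.68 to 35.37 and 29.02 to 45.79 CPM. The markers of CA3 neurons summed to 52.53 to 63.26 and 55.52 to 65.03 CPM, and those of dentate granule cells to 61.25 to 84.62 and 49.38 to 69.88 CPM. Of the 4 CA3 markers 1 had an unadjusted p under 0.05 (higher), and of the 4 CA2 markers 2 had (1 lower and 1 higher). None of the dentate granule, oligodendrocyte or interneuron markers had. The part of these cell types in the values below was not tested. Because whole hippocampi were used for the immunoprecipitation, fewer tagged cells and less of an mRNA per cell cannot be told apart.

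The levels of the 8 subunits spanned a wide range and kept a single order. To compare genes, CPM was divided by the length of the transcript in kilobases. In the wild-type libraries Scn2b was highest at 146.2 ± 5.749 CPM per kilobase (SD, n = 6), followed by Scn3b at 121.6 ± 9.203 and Scn8a at 51.4 ± 1.466. Scn2a1 stood at 26.88 ± 2.097 and Scn4b at 15.99 ± 1.086 CPM per kilobase. Nalcn (7.961 ± 0.4051), Scn1a (5.404 ± 0.607) and Scn3a (2.58 ± 0.2546) were lowest. The 2 accessory subunits Scn2b and Scn3b were thus above every pore-forming subunit, and the order was the same in each of the 12 libraries.

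**Figure D1:**
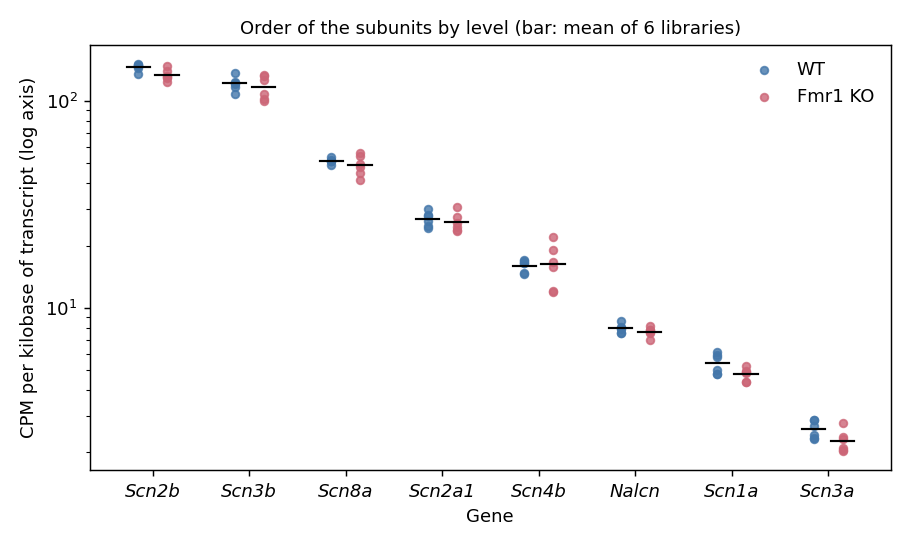
Level of each subunit in CPM per kilobase of transcript (log axis) in the 6 WT and 6 Fmr1 KO libraries, with 1 point per library and a bar at the mean. The genes fall in the same order in both genotypes, and only the ranges of Scn2b and Scn3b overlap.

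Only the first 2 places of the order had overlapping ranges. Scn2b exceeded Scn3b 1.21-fold (SD 0.0966) in wild-type libraries, and with the longest protein-coding transcript as the length of each gene, a choice made after the data were seen, Scn2b was above Scn3b in 6 of 12 libraries. Every other pair of neighbours was apart in range. The steps were 2.37-fold from Scn3b to Scn8a, 1.92-fold from Scn8a to Scn2a1, 1.68-fold from Scn2a1 to Scn4b, 2.01-fold from Scn4b to Nalcn, 1.49-fold from Nalcn to Scn1a and 2.09-fold from Scn1a to Scn3a. The Fmr1-/y libraries had the corresponding steps of 2.38, 1.91, 1.7, 2.14, 1.61 and 2.12, each within 1 SD of the wild-type step.

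Among the 4 alpha subunits, Scn8a, the main channel of the mature axon initial segment and of nodes of Ranvier, made up 59.63 ± 1.644% of the summed level per kilobase in wild-type and 59.72 ± 3.158% in Fmr1-/y libraries (SD, n = 6). Scn2a1, which precedes Scn8a in development and stays on unmyelinated axons, made up 31.13 ± 1.254% and 31.68 ± 2.925%. Scn1a, the channel on which parvalbumin interneurons rely, contributed 6.249 ± 0.4413% and 5.822 ± 0.4445%, and Scn3a, which is mainly embryonic, 2.986 ± 0.185% and 2.773 ± 0.3117%. For each of the 4 subunits the share differed between the genotypes by less than the larger of the SDs of the genotypes.

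Between the genotypes, the subunits differed little. In Fmr1-/y libraries 7 of the 8 had a log2 fold change below 0, where 48.6% of all genes tested did, and the median was -0.06 against 0.00 over all genes. By the quasi-likelihood test of edgeR, which called 0.0224% of genes at an adjusted p under 0.05, 0 of the 8 passed, and 0 passed by the Wald test of DESeq2, which called 0.571% of the genes it gave an adjusted p. Scn1a and Scn2b, both lower, had an unadjusted p under 0.05, as did 7.96% of all genes in edgeR (3.67% lower and 4.29% higher) and 8.47% in DESeq2, where it was the same 2 subunits. For 0 of the 8 did the genotypes fail to overlap, as they did for 0.623% of genes (0.41% with all Fmr1-/y values below all wild-type values). The fewest reads of any subunit in a library were 806, for Scn3a.

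**Figure D2:**
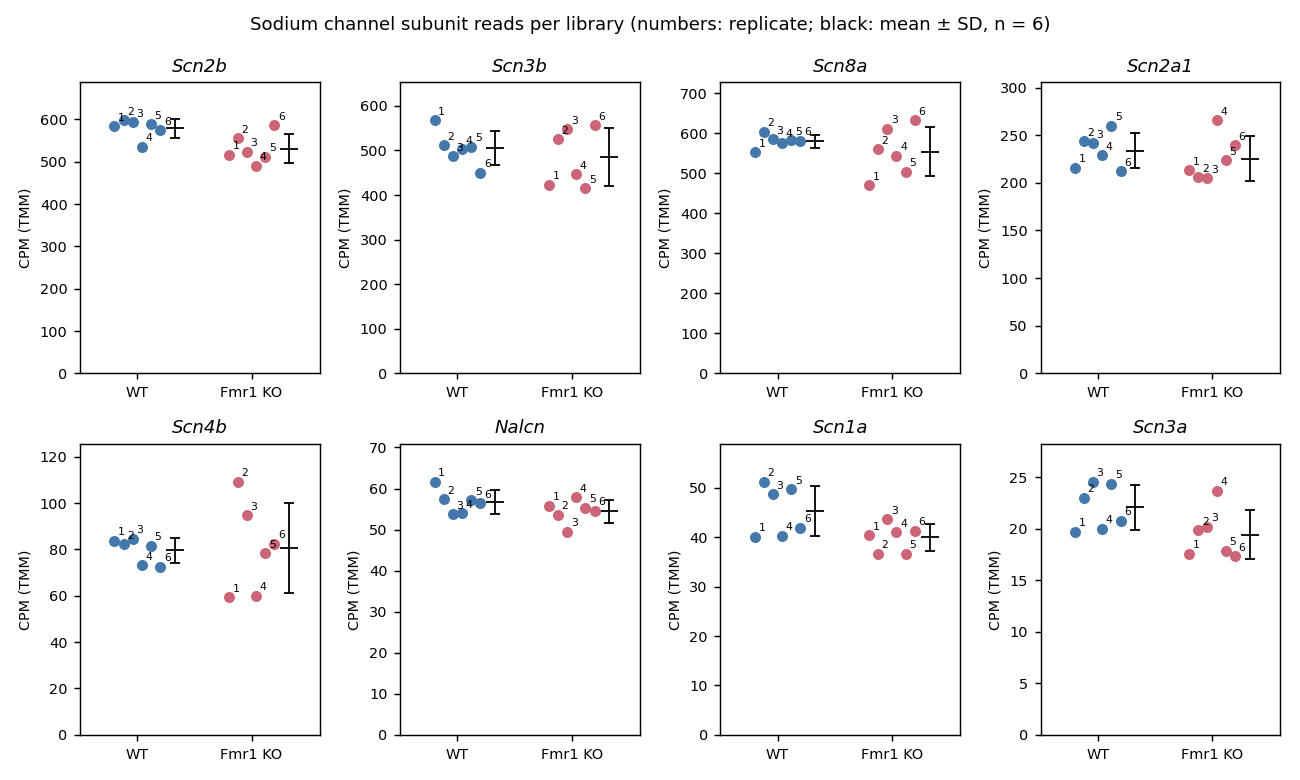
Normalized reads (CPM after TMM scaling, axes from 0) of each subunit in the 6 WT and 6 Fmr1 KO libraries, with the replicate number beside each point and the mean ± SD in black. The genotypes overlap for every subunit, and the Fmr1 KO points of Scn8a and Scn4b are spread more widely than the WT points.

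Scn8a had 552.8 to 604.3 CPM in the wild-type libraries (median 582.1) and 470.6 to 632.6 CPM in the Fmr1-/y libraries (median 552.6). Of the Fmr1-/y libraries, 3 lay below and 2 above the whole wild-type range. The means were 580.5 ± 16.56 and 554.1 ± 61.79 CPM (SD, n = 6), a log2 fold change of -0.07 (SE 0.07, 95% interval -0.21 to 0.08, adjusted p = 0.883 in edgeR). The interval covers a change of -13.6% to 5.41%.

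Scn2a1 ranged from 211.9 to 259.8 CPM in wild-type (median 235.5) and from 204.6 to 265.6 CPM in Fmr1-/y libraries (median 218.4). The ranges nearly coincided. Its log2 fold change was -0.05 (SE 0.07, 95% interval -0.20 to 0.10, adjusted p = 0.933 in edgeR).

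Scn1a ranged from 40.12 to 51.22 CPM in wild-type (median 45.29) and from 36.67 to 43.6 CPM in Fmr1-/y libraries (median 40.69). The wild-type libraries fell into 3 near 50 CPM (replicates 2, 3 and 5) and 3 near 41 CPM (replicates 1, 4 and 6), and all 6 Fmr1-/y libraries lay below the wild-type median. Its mean was 88.1% of the wild-type mean, a log2 fold change of -0.18 (SE 0.08, 95% interval -0.35 to -0.02, adjusted p = 0.575 in edgeR). When wild-type replicate 2, 3 or 5 or Fmr1-/y replicate 5 was left out, 0 of the 8 subunits had an unadjusted p under 0.05, and 1 had without Fmr1-/y replicate 1, 2 or 3. The interneuron markers summed to 149.8, 170.9 and 206.6 CPM in wild-type replicates 2, 3 and 5 and to 122.3, 253.6 and 153.2 CPM in replicates 1, 4 and 6, and their part in the Scn1a values was not tested. None of the 10 interneuron markers had an unadjusted p under 0.05.

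Scn3a had the lowest level of the 8. It ranged from 19.72 to 24.55 CPM in wild-type (median 21.88) and from 17.35 to 23.66 CPM in Fmr1-/y libraries (median 18.84). All but 1 of the Fmr1-/y libraries were below the wild-type median, and replicate 4 was the exception at 23.66 CPM. The log2 fold change was -0.19 (SE 0.09, 95% interval -0.38 to 0.01, adjusted p = 0.650 in edgeR). Scn1a and Scn3a therefore had the lowest log2 fold changes of the 8, and both intervals reach from about no change to a fall of more than 20%, with lower bounds of -21.5% and -23.2%.

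Scn2b, an accessory subunit that is disulfide-linked to the alpha subunit and promotes its surface delivery, ranged from 535.6 to 597.9 CPM in wild-type (median 586.2) and from 491.1 to 585.7 CPM in Fmr1-/y libraries (median 520.2). Of the Fmr1-/y libraries, 4 were below every wild-type library, and all 6 were below the wild-type median. The means were 578.9 ± 22.75 and 530.8 ± 34.0 CPM (SD, n = 6), a log2 fold change of -0.13 (SE 0.06, 95% interval -0.24 to -0.01, adjusted p = 0.589 in edgeR). It had the smallest standard error of the 8, whose median was 0.08, against 0.12 over all genes.

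Scn3b, which associates with the alpha subunit without a covalent bond, ranged from 450.1 to 567.6 CPM in wild-type (median 506.0) and from 414.9 to 556.5 CPM in Fmr1-/y libraries (median 485.8). The Fmr1-/y values formed a lower group of 3 (replicates 1, 4 and 5) that was below every wild-type library and a higher group of 3 (replicates 2, 3 and 6) that was within the wild-type range. The log2 fold change was -0.06 (SE 0.08, 95% interval -0.23 to 0.12, adjusted p = 0.935 in edgeR).

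Scn4b ranged from 72.52 to 84.66 CPM in wild-type (median 81.92) and from 59.49 to 109.2 CPM in Fmr1-/y libraries (median 80.46). Replicates 1 and 4 of the Fmr1-/y libraries, at 59.49 and 59.99 CPM, were below every wild-type library, and replicates 2 and 3, at 109.2 and 94.79 CPM, were above every wild-type library. The means were 79.65 ± 5.411 and 80.73 ± 19.48 CPM (SD, n = 6), and the log2 fold change of 0.02 (SE 0.12, 95% interval -0.24 to 0.28, adjusted p = 0.989 in edgeR) was the only one above 0. Its sign changed without wild-type replicate 4 or 6, without Fmr1-/y replicate 2 (-0.09) or 3, and with the replicate number as a block.

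Nalcn ranged from 53.74 to 61.66 CPM in wild-type (median 56.75) and from 49.45 to 57.87 CPM in Fmr1-/y libraries (median 54.98). It was among the steadiest of the 8, with a coefficient of variation of 5.09% in wild-type and 5.2% in Fmr1-/y libraries. The log2 fold change was -0.06 (SE 0.06, 95% interval -0.18 to 0.07, adjusted p = 0.886 in edgeR).

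**Figure D3:**
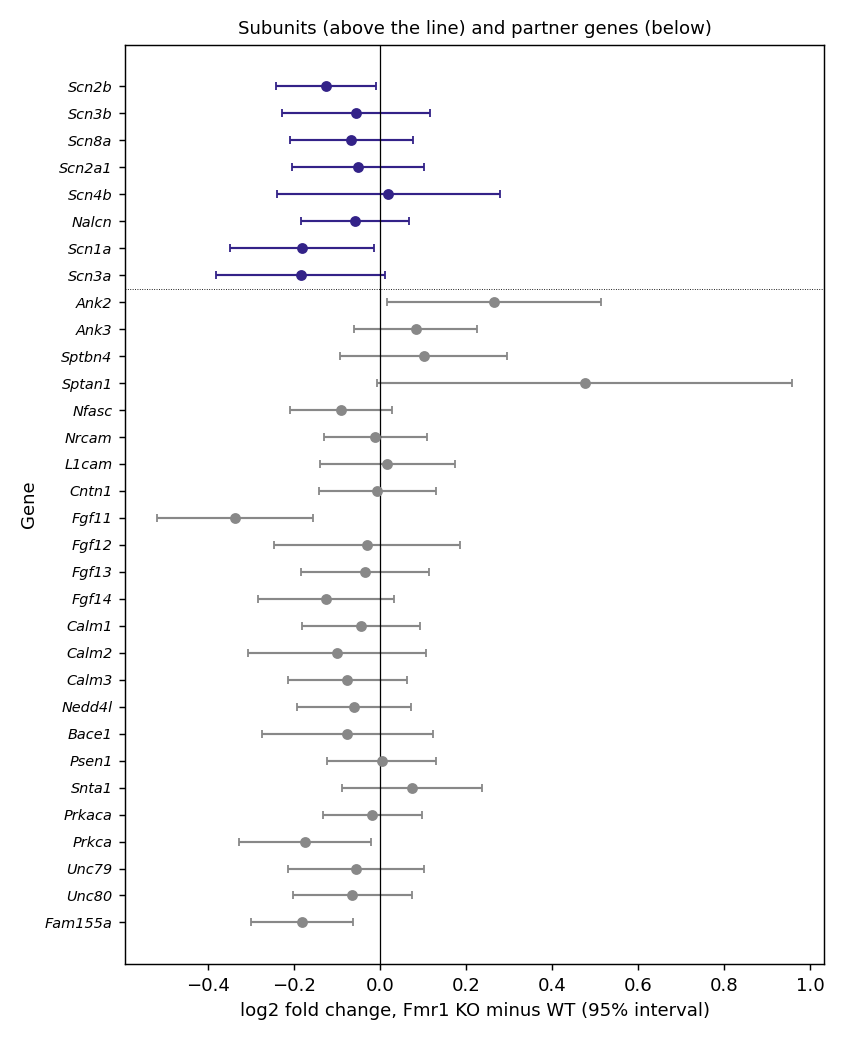
log2 fold change, Fmr1 KO minus WT, with its 95% interval for the 8 subunits (above the dotted line) and 24 partner genes with a mean of more than 5 CPM in both genotypes (below it). The intervals of Scn1a and Scn2b end just below 0, those of the other 6 subunits cross 0, and no gene shown had an adjusted p under 0.05 in edgeR.

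The spread between libraries was larger in Fmr1-/y than in wild-type for 7 of the 8 subunits. Of the 5987 genes with a mean log2 CPM over 5, 66.4% also had a larger SD in Fmr1-/y libraries, with a median ratio of 1.16. The SD of log2 CPM of Scn8a was 0.0414 in wild-type and 0.162 in Fmr1-/y libraries, a ratio of 3.92, and that of Scn4b was 0.0999 and 0.351, a ratio of 3.51. Ratios over 3 were found for 2.51% of these genes. Scn3b (1.78), Scn2b (1.57), Scn2a1 (1.3), Scn3a (1.2) and Nalcn (1.06) had smaller ratios, and Scn1a (0.616) varied more in wild-type libraries. No test of the spread was made.

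**Figure D4:**
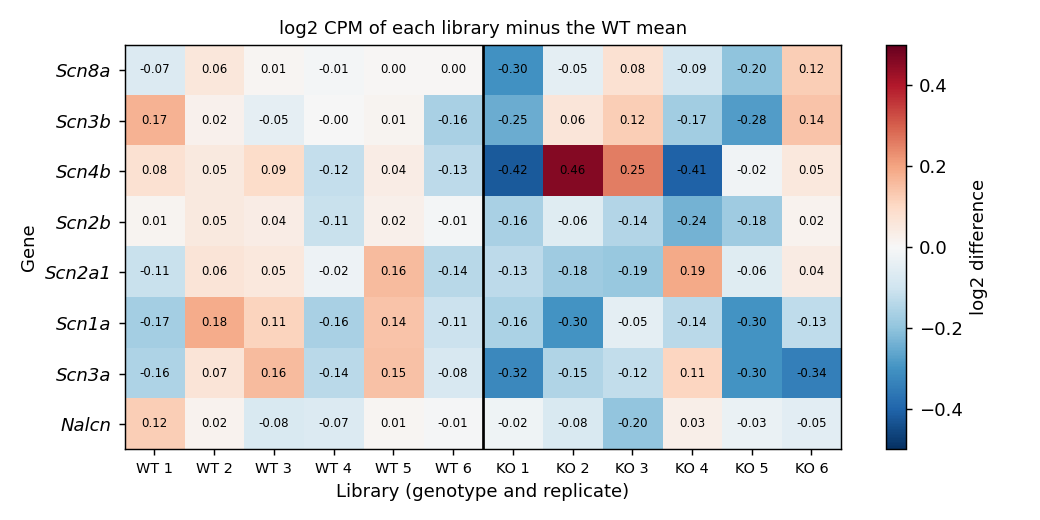
log2 CPM of each subunit in each library minus the mean of the WT libraries, printed in the cells and shown by colour (blue lower, red higher). Fmr1 KO replicates 1, 4 and 5 hold the 3 lowest KO values of Scn8a, Scn2b, Scn3b and Scn4b. WT replicates 2, 3 and 5 hold the 3 highest WT values of Scn1a, Scn2a1, Scn3a, Scn2b and, by a narrow margin, Scn8a.

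Correlations between the subunits were higher within 2 sets than between them, but the sets were not separate. The first set was Scn8a, Scn2b, Scn3b and Scn4b, whose 3 lowest Fmr1-/y values were those of replicates 1, 4 and 5. Across the 12 libraries the deviations from the genotype means correlated between Scn8a and Scn3b (Pearson r = 0.716), Scn3b and Scn4b (r = 0.675), and Scn2b and Scn4b (r = 0.593). The other set was Scn1a, Scn2a1 and Scn3a, with r = 0.596 between Scn1a and Scn3a, r = 0.596 between Scn2a1 and Scn3a and r = 0.501 between Scn1a and Scn2a1. Wild-type replicates 2, 3 and 5 held the 3 highest wild-type values of these genes. The same replicates did so for Scn2b and, by a narrow margin, Scn8a of the first set. Between the sets, Scn1a and Scn8a had r = 0.39. Nalcn went with neither set and had r = -0.467 with Scn8a. All points of a correlation come from the same 12 libraries and share their depth and composition, so the values are descriptive. Astrocyte markers were highest in Fmr1-/y replicates 1 and 2, at 1188 and 1041 CPM, and Scn4b was lowest in the first of these and highest in the second. The part of astrocytes in the Scn4b values was not tested.

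Across the same libraries, the genes whose deviations were most like those of a subunit were found by searching the 5987 genes. For Scn8a they were Pnkd (r = 0.956) and Zbtb7a (r = 0.926), and for Scn3b Tbc1d1 (r = 0.957) and B3gat1 (r = 0.949). Scn2a1 was most like Cntn1 (r = 0.938) and Map1b (r = 0.935), Cntn1 being a cell adhesion protein of the axon surface and Map1b a microtubule-associated protein. Arl8a, a small GTPase of lysosomes, was among those most like Scn4b (r = 0.888). Scn2b was most like Map2k7 (r = 0.908) and Tmem150c (r = 0.904), and Nalcn most like Ppm1a (r = 0.894) and Gnl3l (r = 0.892). Scn1a was most like Cerk (r = 0.889) and Adcy3 (r = 0.864), and Scn3a most like Slc7a8 (r = 0.851) and Pkia (r = 0.847). These are the highest of many values over 12 libraries and carry no test.

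Genes whose proteins work with these channels were examined in the same test, by their ribosome-bound mRNA. Of 32 listed partner genes, 31 were in the table and 30 were tested. Of these 30, 22 had a log2 fold change below 0 and 8 above, with a median of -0.05, where 48.6% of all genes tested were below 0. In edgeR, which called 0.0224% of all genes at an adjusted p under 0.05, 0 partner genes passed. In DESeq2, which called 0.571% of the genes it gave an adjusted p, 1 passed. An unadjusted p under 0.05 in edgeR was found for 4 (3 lower and 1 higher), against 7.96% of all genes. The other alpha subunits, those of muscle, heart and sensory neurons, were scarce. Scn10a had too few reads to be tested, and of the 6 other channel subunits tested Scn11a had the smallest unadjusted p, with at most 9 reads in a library (adjusted p = 0.726 in edgeR).

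FGF homologous factors are cytoplasmic proteins that bind the tail of the alpha subunit and shift its inactivation. All 4 of their genes had a log2 fold change below 0, as did 48.6% of all genes tested. Fgf11 ranged from 28.74 to 35.5 CPM in wild-type (median 33.61) and from 22.16 to 31.45 CPM in Fmr1-/y libraries (median 25.63), so the ranges overlapped. Its log2 fold change of -0.34 (SE 0.09) had an adjusted p of 0.259 in edgeR and of 0.0383 in DESeq2. It was the 1 partner gene past the threshold in DESeq2.

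All 3 tested partner genes of the Nalcn complex had a log2 fold change below 0, as did Nalcn itself and 48.6% of all genes tested. Fam155a, which helps the channel reach the membrane, ranged from 87.4 to 98.56 CPM in wild-type (median 91.84) and from 73.8 to 85.9 CPM in Fmr1-/y libraries (median 81.84). It was the only one of the 30 partner genes whose genotypes did not overlap, as 0.623% of all genes did not, and its log2 fold change was -0.18 (SE 0.06, adjusted p = 0.371 in edgeR and 0.111 in DESeq2). Unc79 and Unc80, which encode scaffold proteins and are named outside the rule, had log2 fold changes of -0.06 (SE 0.07) and -0.06 (SE 0.07) with overlapping ranges.

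Of the axon initial segment and node genes, 5 of 8 were above 0, where 51.4% of all genes tested were. Ank2, an ankyrin of axons and dendrites, ranged from 298.8 to 376.9 CPM in wild-type (median 341.7) and from 321.1 to 590.9 CPM in Fmr1-/y libraries (median 393.9). The highest value was that of Fmr1-/y replicate 5. Its log2 fold change was 0.26 (SE 0.12, adjusted p = 0.595 in edgeR). Ank3, the ankyrin that anchors sodium channels at the initial segment, is named outside the rule, with a log2 fold change of 0.08 (SE 0.07, adjusted p = 0.833 in edgeR). Of the 9 regulators 7 were below 0, and only Prkca, a protein kinase C that can phosphorylate the channel, had an unadjusted p under 0.05. It ranged from 306.7 to 370.3 CPM in wild-type (median 343.0) and from 270.6 to 345.4 CPM in Fmr1-/y libraries (median 293.6), with a log2 fold change of -0.17 (SE 0.07, adjusted p = 0.542 in edgeR).

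The genes next to the subunits on their chromosomes had adjusted p-values of 0.313 or more in edgeR. The smallest was that of Csrnp3, which follows Scn2a1 and encodes a nuclear protein, at 71.26 ± 2.376 CPM in the wild-type group and 62.49 ± 2.506 CPM in the Fmr1-/y group (SD, n = 6; log2 fold change -0.19, SE 0.05). Scn2a1 itself, 77837 bases away, had a log2 fold change of -0.05. Beside Scn8a lie Slc4a8, a sodium-driven bicarbonate exchanger (log2 fold change -0.13, SE 0.06, adjusted p = 0.634 in edgeR), and Fignl2 (-0.41, SE 0.20, adjusted p = 0.650 in edgeR), the latter at 6.543 CPM in wild-type libraries. Gramd1b, which follows Scn3b, had a log2 fold change of -0.15 (SE 0.09) and Zfp202 on its other side -0.16 (SE 0.17). Ttc21b beside Scn1a (-0.07, SE 0.10) and Tmtc4 and Itgbl1 beside Nalcn (-0.11, SE 0.12, and -0.36, SE 0.21) had intervals of the same kind, and Scn9a, Slc38a11, Jaml and Tmprss4 were at 1.11 CPM or less in wild-type libraries.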

How the data were processed

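The libraries held RNA bound to HA-tagged ribosomes, from 6 wild-type pools and 6 Fmr1-/y pools. Per the labels and the study's methods, the authors made stranded libraries of polyadenylated RNA, aligned reads of 50 bases to mm10 with TopHat2 2.1.1 and Bowtie2 2.2.8, and deposited whole-number read counts per gene from HTSeq 0.6.1p1, without normalization. Which 4 libraries shared a lane is not given in the sources used here, so lane and genotype cannot be told apart.

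Genes with at least 15 reads in total were kept. Counts were scaled by TMM and genotypes compared with edgeR 4.0.16 (quasi-likelihood test, R 4.3.3) without covariates, with Benjamini-Hochberg adjustment over 17823 genes and a threshold of 0.05. The standard error is the size of the log2 fold change divided by the square root of F, and the 95% interval uses the t quantile of the fit. Levels per kilobase use the longest GENCODE transcript with a RefSeq accession, matched by Entrez identifier. Likeness of pattern used log2 CPM with a prior count of 2. The alternatives were DESeq2 1.42.0 and its size factors, other filters, the replicate block and each library left out. Both tools were tested on simulated data. The subunits and gene lists were chosen with earlier results of these data known. Named are all subunits, of each partner list the gene with the smallest unadjusted p and any under 0.05, the chromosomal neighbours, and the 2 most similar genes of each subunit, of which some genes are not reported here.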

Additional observations from a re-analysis of the deposited data

How the results depend on the processing

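None of the 8 subunits had an adjusted p under 0.05 in any of 17 alternatives, and 131 of 136 comparisons kept the direction. The other 5 were of Scn4b, whose log2 fold change was -0.012 with the replicate block, and from -0.0864 to 0.0933 when single libraries were left out, below 0 without wild-type replicate 4 (-0.0043) or 6 (-0.0064) and without Fmr1-/y replicate 2 (-0.0864) or 3 (-0.0318). Over all alternatives the log2 fold change ranged from -0.22 to -0.14 for Scn1a (unadjusted p under 0.05 in 12 of 17), from -0.16 to -0.10 for Scn2b (9 of 17) and from -0.25 to -0.15 for Scn3a (3 of 17). The number of all genes past the threshold, 4 in edgeR, was 84 with DESeq2, 1 with at least 10 reads in every library, and 2 to 6 when single libraries were left out. It was 2 without wild-type replicate 4, 5 or 6 or Fmr1-/y replicate 1, 4, 5 or 6. Of the partner genes 1 passed in DESeq2, against 0 in edgeR. The replicate block gave 4 genes and no subunit, but neither the labels nor the values show that the numbers pair the samples: same-numbered libraries had correlations of -0.0809 to 0.0899 over all genes and of -0.443 to 0.599 over the 5987 genes with a mean log2 CPM over 5, and 0 and 1 of 6 wild-type libraries correlated best with their own number. They were therefore not treated as pairs. The subunits had at least 806 reads in every library, so the spread between 6 pools set the width of the intervals, and the counts of Scn1a, Scn2a1 and Scn3a are further limited by reads they may share.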
